A study of Homo sapiens with 6 samples.

Results

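The glucocorticoid receptor and its response genes were followed through 10 of the 19721 genes named on the array, in REH cells. REH is a BCP-ALL cell line, that is a culture of human B-cell precursor leukemia, with the ETV6/RUNX1 fusion. The 10 genes were the receptor gene NR3C1, the response genes FKBP5, TSC22D3, PER1, DUSP1, ZBTB16, KLF9, SGK1 and BTG1, and HSP90AA1, which encodes a chaperone of the receptor. They were chosen by name, and their probes were all catalogue probes of the array whose RefSeq accession belongs to one of these genes. This gave 13 probes of the 57176 probes on the array, with 3 probes for HSP90AA1, 2 for NR3C1 and 1 for each other gene. Expression was measured on 6 one-color Agilent arrays, 3 of cells with a non-targeting shRNA (control) and 3 of cells with an shRNA against the fusion (knockdown), each with replicates numbered 1 to 3. According to the study's methods, both hairpins were ETV6 sequences delivered by lentivirus with a GFP marker, the control hairpin did not hit the fusion transcript, and transduced cells were sorted by GFP. Cells of both groups lacked the other ETV6 allele, and neither the labels nor the methods name a glucocorticoid among the treatments of either group. All samples came from 1 cell line, so p-values measure the spread between its cultures. The labels do not say how the numbered cultures relate to each other.

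Glucocorticoids enter the cell and bind the receptor NR3C1, which is held in the cytoplasm in a complex with HSP90 chaperones and immunophilins. The bound receptor moves to the nucleus, binds short palindromic DNA elements and switches on genes such as FKBP5, TSC22D3 and PER1, while it represses many inflammatory genes. In lymphoid cells this response leads to growth arrest and cell death, which is why glucocorticoids are a mainstay of treatment for acute lymphoblastic leukemia.

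None of the 12 member probes that passed the filter on dim probes differed between knockdown and control at an adjusted p under 0.05, against 1.74% of all 27490 probes tested. Of these 12 probes, 8 had a higher and 4 a lower mean in knockdown, with a median log2 fold change of 0.08 beside -0.0015 over all probes tested. FKBP5 had the largest positive difference, 0.47 on the log2 scale, and SGK1 the largest negative one, -0.44. The largest spread was seen for TSC22D3 and SGK1. Both differed more between the array numbered 1 and the other arrays of the same group than between knockdown and control. So did every HSP90AA1 probe and the NR3C1 probe A_33_P3767927, among others.

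The fusion transcript was followed through ETV6, as REH cells have no other ETV6 allele. Of 2 ETV6 probes, A_33_P3210343 stayed at background level on all arrays, and whether the other, A_33_P3356325, lies in the part of ETV6 kept in the fusion was not examined. The latter read 7.92, 8.05 and 8.37 on control arrays and 7.50, 7.46 and 7.29 in the knockdown group, without overlap. The difference was -0.70 (SE 0.14), with an adjusted p of 0.0513, and it was called under 3 of 18 alternatives. All values are on a generalised log2 scale, on which 1 unit is close to a 2-fold change for bright probes and less for dim ones. Over all probes, 126 (0.458%) were called higher and 352 (1.28%) lower in knockdown, where called means an adjusted p under 0.05. B-cell precursor markers were well above background (18 of 20 probes retained; CD79A at a mean of 16.19 in control and 16.34 in knockdown, PAX5 at 7.58 and 7.54), except that both VPREB1 probes were not well above background on at least 5 of 6 arrays. Of the 18 retained B-cell precursor probes, 15 had a higher and 3 a lower mean in knockdown, and none was called. An unadjusted p under 0.05 in limma was found for 8 of them, against 12.5% of all probes. With the replicate number as a block 4 were called, against 3.79% of all probes. The mean over these 18 probes ran from 12.81 to 12.88 on control arrays and from 13.06 to 13.18 on knockdown arrays. The same mean over 5 myeloid probes ran from 8.34 to 8.57 and from 7.78 to 8.08. Among the myeloid probes MPO, a granule peroxidase, fell by 2.02 on the log2 scale (means 13.95 and 11.93, adjusted p = 0.00107), while the other 4 probes had log2 fold changes from -0.62 to 0.07 and none of them was called. Over 7 T or NK cell probes it ran from 7.14 to 7.25 and from 7.30 to 7.60. CD3E, a T cell marker, and HBB, an erythroid marker, were not well above background on any array, and CD14, a monocyte marker, had means of 7.37 and 7.25. The part of these shifts in the results below was not tested, and in RNA from a whole culture a different number of cells and a different amount of RNA per cell cannot be told apart. The arrays numbered 1 stood apart from the others, with 1557 probes (5.66%) called between replicate 1 and replicates 2 and 3 across both groups. That contrast was chosen with earlier results of these data known.

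Promoter windows of the members were read from RefSeq (GRCh38.p14) to show which known binding motifs lie near the start sites of the genes. A total of 22 start sites were found for 9 of the 10 genes. The windows below end at the base before the annotated start and are given 5′ to 3′ on the strand of the gene, with motif matches on either strand in capitals. They are shown because FKBP5 had the lowest p of the members, TSC22D3 the largest spread, DUSP1 the only full cyclic AMP response element (TGACGTCA) and HSP90AA1 the only heat shock element (a triplet of alternating GAA and TTC units). Other capitals mark the RUNX site TGTGGT, the E-box CACGTG and TGACG, the core of the cyclic AMP response element, which lies within TGACGTCA and can overlap CACGTG. FKBP5, TSC22D3 and HSP90AA1 have further annotated starts, whose windows are not shown. The window of the other FKBP5 start holds CACGTG and no TGTGGT. The TSC22D3 windows not shown include some with and some without TGTGGT.
FKBP5, chr6:35728584-35728833, minus strand: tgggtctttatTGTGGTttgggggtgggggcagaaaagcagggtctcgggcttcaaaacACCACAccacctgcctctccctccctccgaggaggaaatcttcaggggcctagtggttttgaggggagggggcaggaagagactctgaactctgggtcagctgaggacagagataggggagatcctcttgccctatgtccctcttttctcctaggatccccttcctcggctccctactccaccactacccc
TSC22D3, chrX:107717063-107717312, minus strand: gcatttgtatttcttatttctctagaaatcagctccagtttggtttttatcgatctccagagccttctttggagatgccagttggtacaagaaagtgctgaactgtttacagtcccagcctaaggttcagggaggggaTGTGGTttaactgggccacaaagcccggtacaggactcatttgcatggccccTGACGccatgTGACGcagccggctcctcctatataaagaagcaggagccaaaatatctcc
DUSP1, chr5:172771196-172771445, minus strand: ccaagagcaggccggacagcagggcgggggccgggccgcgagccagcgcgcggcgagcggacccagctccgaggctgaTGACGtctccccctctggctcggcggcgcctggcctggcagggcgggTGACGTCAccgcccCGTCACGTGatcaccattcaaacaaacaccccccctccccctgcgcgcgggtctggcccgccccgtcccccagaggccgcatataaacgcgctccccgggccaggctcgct
HSP90AA1, chr14:102087045-102087294, minus strand: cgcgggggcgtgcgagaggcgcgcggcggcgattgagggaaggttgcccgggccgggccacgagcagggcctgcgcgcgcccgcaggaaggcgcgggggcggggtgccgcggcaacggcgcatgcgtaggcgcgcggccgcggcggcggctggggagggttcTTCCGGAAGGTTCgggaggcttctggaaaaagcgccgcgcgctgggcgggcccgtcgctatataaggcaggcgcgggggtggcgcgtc
Over all 35116 windows from 250 bases before to 50 bases after a start, TGTGGT or its reverse complement was found in 13.1%, and in 4 of the 22 member windows, which belong to FKBP5, NR3C1 and TSC22D3. TGACG was found in 24.6% of all windows and in 9 member windows, CACGTG in 7.26% and in 3 member windows (DUSP1, FKBP5 and PER1), TGACGTCA in 1.85% and the heat shock element in 0.49%. AGAACA, one arm of the glucocorticoid response element, was found in 14.8% of all windows and in 2 member windows, those of FKBP5 and SGK1. The full palindromic glucocorticoid response element, AGAACA and its reverse complement around a gap of 3 bases, was found in 1 of the 35116 windows and in no member window. These matches describe letters in the windows only.

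NR3C1, the receptor itself, was measured by 2 probes that were well above background on all 6 arrays. Probe A_33_P3767927 read 11.08, 10.76 and 10.64 on control replicates 1 to 3 and 11.59, 10.91 and 10.88 on knockdown replicates 1 to 3. Probe A_33_P3216297 read 8.08, 7.85 and 7.75 in control and 8.50, 7.96 and 8.07 in knockdown. In both probes each knockdown array was above the control array of the same number, the array numbered 1 was the highest of its group, and the groups overlapped. The log2 fold changes were 0.30 (SE 0.21, adjusted p = 0.618) and 0.28 (SE 0.16, adjusted p = 0.530), and the exact permutation test gave p = 0.4 and p = 0.3, where 3 arrays against 3 cannot give less than 0.1. Without knockdown replicate 1 the log2 fold changes were 0.069 (A_33_P3767927) and 0.12 (A_33_P3216297). Which receptor isoforms each probe detects was not examined.

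**Figure D1:**
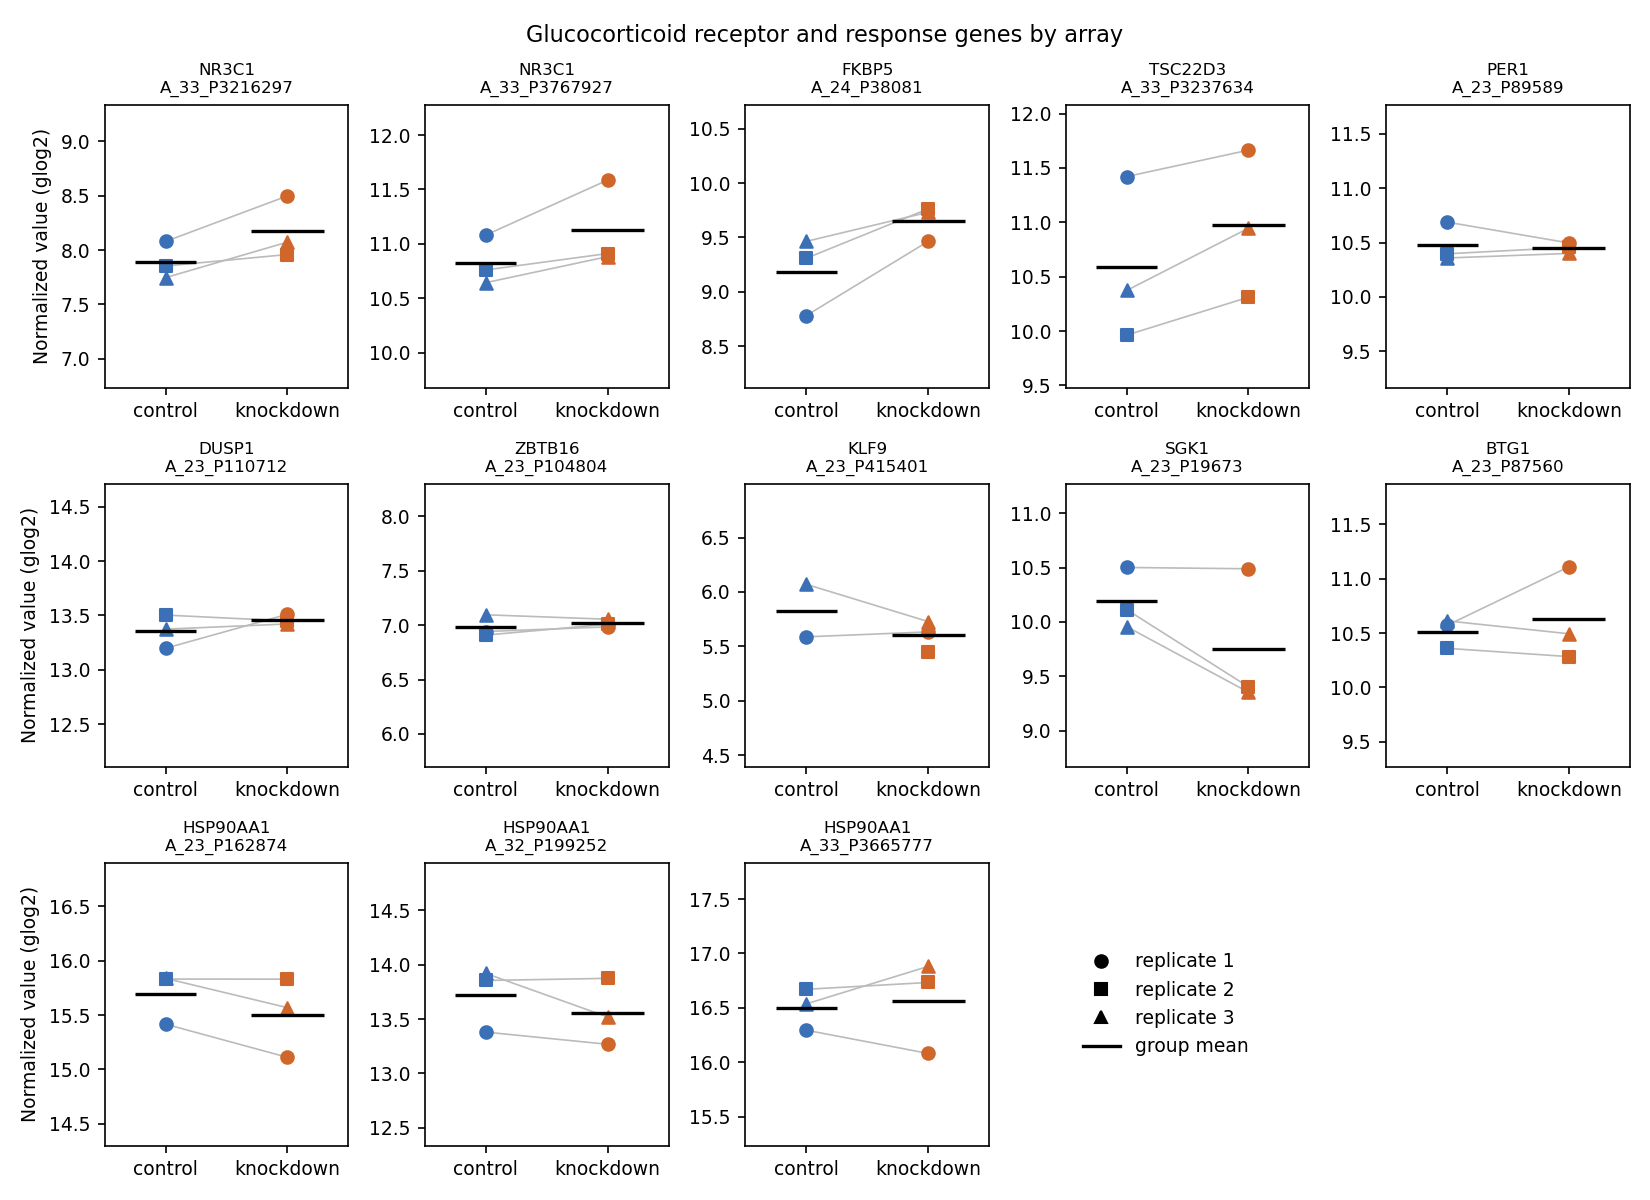
Normalized values (generalised log2 scale) of the 13 member probes on each array, with control arrays on the left and knockdown arrays on the right of each panel, markers for the replicate number, lines joining arrays of the same number, and bars for group means. Every panel spans the same number of log2 units; the KLF9 spot of control replicate 2, flagged as an outlier, is left out, and in the panels of TSC22D3 and NR3C1 the circle of replicate 1 is the highest symbol of each group.

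FKBP5 encodes an immunophilin that joins the receptor complex and lowers its affinity for hormone, and it is itself a direct target of the receptor. The probe read 8.78, 9.31 and 9.46 on control replicates 1 to 3 and 9.46, 9.76 and 9.73 on knockdown replicates 1 to 3. Control replicate 1 was the lowest array, and knockdown replicate 1 was level with control replicate 3, so the groups touched. Mean values were 9.18 ± 0.36 in control and 9.65 ± 0.16 in knockdown (SD, n = 3 arrays each). The log2 fold change was 0.47 (SE 0.18, 95% interval 0.05 to 0.89), the only member with an unadjusted p under 0.05 in limma (0.0339), where 12.5% of all probes had one. The adjusted p was 0.341, and the exact permutation test gave p = 0.2. Each knockdown array was above the control array of the same number, by 0.68, 0.45 and 0.27. Without control replicate 1 the log2 fold change was 0.27, and with the row of the array on the slide as a term 0.19 (adjusted p = 0.952). That term sets the 3 knockdown arrays against control replicate 3, since the other control arrays lay alone in the first row. When the arrays were scaled to 7 spike-in probes, which raised the median log2 fold change of all probes to 0.35, FKBP5 was the only called member (log2 fold change 0.82, adjusted p = 0.0335), among 3.46% of all probes. In that fit every probe had the same SE (0.25), so that calls followed the size of the difference alone and not the spread of the single probe.

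TSC22D3 encodes GILZ, a leucine zipper protein that dampens inflammatory signalling and is a classical glucocorticoid target in lymphocytes. It read 11.42, 9.96 and 10.37 on control replicates 1 to 3 and 11.66, 10.31 and 10.95 on knockdown replicates 1 to 3. The array numbered 1 was the highest of its group in control and in knockdown, and the spread within groups was larger than that of 99.0% of the probes tested. The log2 fold change of 0.39 (SE 0.42, 95% interval -0.59 to 1.36) was smaller than that spread, with an adjusted p of 0.763. Between arrays of the same number the differences were 0.24, 0.35 and 0.57.

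SGK1, a kinase of ion transport and cell survival that is induced by glucocorticoids and mineralocorticoids, read 10.50, 10.11 and 9.96 on control replicates 1 to 3. Its knockdown arrays read 10.49, 9.40 and 9.35. Replicates 2 and 3 of knockdown were below all control arrays, while the arrays numbered 1 were level in both groups. The log2 fold change was -0.44 (SE 0.30, 95% interval -1.13 to 0.25, adjusted p = 0.609), and the exact permutation test gave p = 0.3. It ran from -0.81 without knockdown replicate 1 to -0.24 without knockdown replicate 3. With both arrays numbered 1 left out, a comparison of 2 arrays against 2 added after seeing the data, SGK1 was called at -0.66 (adjusted p = 0.0303), the only called member among 2.59% of all probes, and the ETV6 probe was called too (-0.84, adjusted p = 0.0310). No other member was called in that comparison.

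DUSP1 and PER1 are early response genes that the receptor induces within minutes to hours. DUSP1, a phosphatase that switches off MAP kinases, read 13.20, 13.50 and 13.37 in control and 13.51, 13.45 and 13.42 in knockdown. Its log2 fold change was 0.10 with a 95% interval from -0.15 to 0.35. PER1, a repressor of the circadian clock, read 10.69, 10.40 and 10.36 in control and 10.50, 10.46 and 10.40 in knockdown, with a difference of -0.03 (95% interval -0.30 to 0.24). Both genes had within-group spreads under the median of all probes. Their intervals leave out a 2-fold difference in either direction on this scale.

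ZBTB16 and BTG1 act on growth and differentiation. ZBTB16, a zinc finger transcription factor known as PLZF, was low in both groups, with values of 6.94, 6.91 and 7.10 in control and 6.98, 7.01 and 7.05 in knockdown (log2 fold change 0.03, 95% interval -0.19 to 0.26). Its spread within groups was smaller than that of most probes. BTG1, an antiproliferative protein, read 10.57, 10.36 and 10.61 in control and 11.11, 10.28 and 10.49 in knockdown. Knockdown replicate 1 alone stood above the control arrays, and the log2 fold change of 0.11 (SE 0.20, adjusted p = 0.863) became -0.13 without it.

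KLF9, a Krüppel-like transcription factor induced by the receptor, was the 1 member that did not pass the filter. Its raw median intensities were 61, 88, 70.5, 60.5 and 67 on the 5 arrays with a usable spot, against medians of 42.25 to 48 for negative controls. The normalized values were 5.59 and 6.07 on control replicates 1 and 3 and 5.63, 5.45 and 5.73 on the knockdown arrays, and 1 of these 5 values lay above the threshold of its array, while 4 were well above background by the measure of the scanner software. On control replicate 2 the spot read 11318 and was flagged as an outlier by the scanner software, so it was left out. The authors' deposited log2 value for that array is 13.46, while their values for the other 5 arrays run from 5.11 to 5.79. Tested on the deposited values, KLF9 had a log2 fold change of -2.91 with a SE of 1.88 (adjusted p = 0.616), and without that spot -0.23 with no filter (adjusted p = 0.787). With the threshold of negative controls set on the raw intensity instead, KLF9 passed the filter and was not called (-0.23, adjusted p = 0.677 in limma).

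HSP90AA1, the stress-inducible HSP90 chaperone that keeps the receptor able to bind hormone, was measured by 3 probes. A_23_P162874 read 15.42, 15.83 and 15.84 in control and 15.11, 15.83 and 15.57 in knockdown, with a log2 fold change of -0.19 (adjusted p = 0.747). The log2 fold changes of the other two probes were -0.16 (A_32_P199252, adjusted p = 0.784) and 0.06 (A_33_P3665777, adjusted p = 0.932), so the probes differed in sign and none was called. The array numbered 1 was the lowest of its group with every HSP90AA1 probe. HSP90AA1 has near-identical copies in the genome, and whether the probes also bind their transcripts was not tested.

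**Figure D2:**
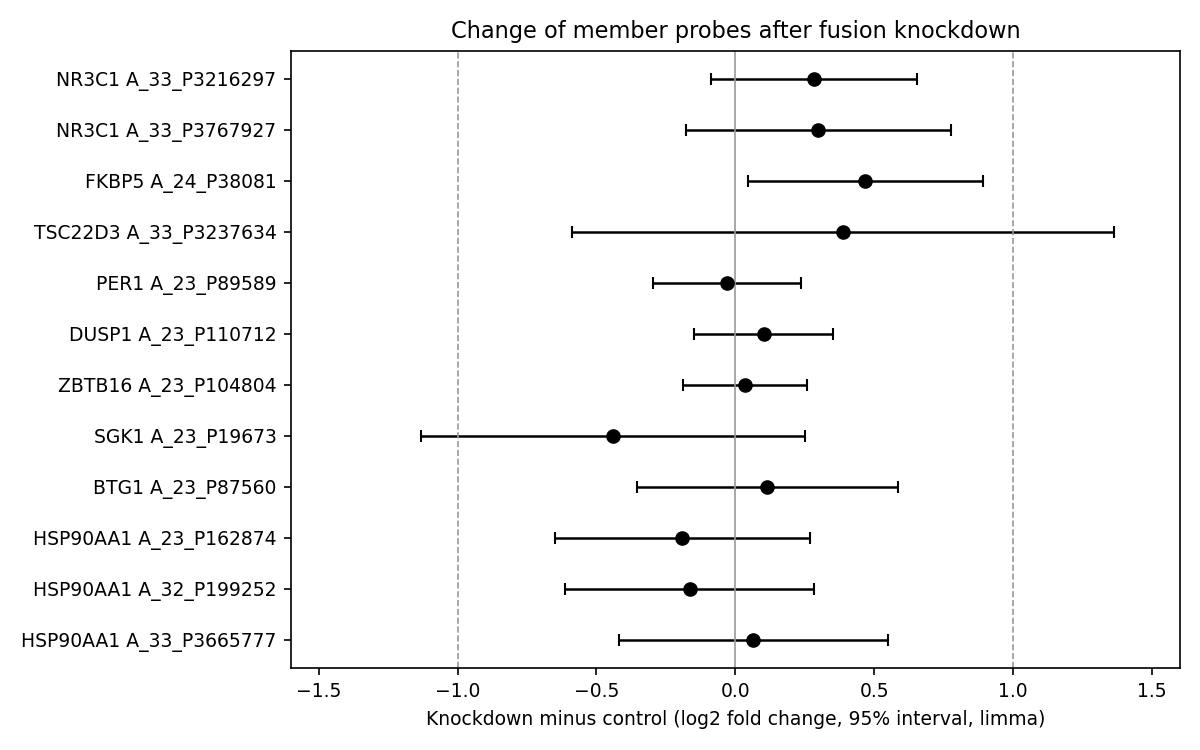
Log2 fold change of knockdown against control for the 12 member probes that passed the filter (points) with limma's 95% intervals (bars); dashed lines mark a 2-fold difference in either direction. In this fit without a replicate block, the intervals of 10 probes lie within the dashed lines, and those of TSC22D3 and SGK1 cross them.

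The 95% intervals of 10 of the 12 probes lay within a 2-fold difference in either direction, and those of TSC22D3 and SGK1 did not. These intervals belong to the fit without a replicate block. A block on the replicate number gave an SE of 0.10 instead of 0.42 for TSC22D3 and of 0.15 instead of 0.30 for SGK1. Neither was called in limma with the block (adjusted p = 0.106 and 0.187). No member had groups that did not overlap, against 18.9% of all probes. All 3 knockdown arrays were above the control arrays of the same number for 4 of the 12 probes (both NR3C1 probes, FKBP5 and TSC22D3), against 20.7% of all probes. All 3 were below them for 2 probes, SGK1 and HSP90AA1 with A_23_P162874, against 21.3% of all probes. With the replicate number as a block, still no member was called (lowest adjusted p 0.0773, FKBP5) while 3.79% of all probes were, and 5 of 12 member probes had an unadjusted p under 0.05 in limma against 18.8% of all probes.

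Several members differed between the arrays numbered 1 and the others. This contrast had the group as a term. It was set up because earlier results of these data had shown the arrays numbered 1 apart. Its adjusted p does not account for that choice. If arrays of the same number are pairs, the contrast sets 1 pair of arrays against 2 pairs. Its SE and adjusted p, which treat the 6 arrays as independent, may then be too small. Between replicate 1 and replicates 2 and 3, 4 of 12 member probes were called, against 5.66% of all probes. Of these, 3 were higher and 1 lower in replicate 1, where 3.64% and 2.02% of all probes were. Replicate 1 was higher by 1.14 for TSC22D3 (SE 0.19, adjusted p = 0.0211), by 0.79 for SGK1 (SE 0.15, adjusted p = 0.0287) and by 0.53 for NR3C1 with A_33_P3767927 (SE 0.10, adjusted p = 0.0311). It was lower for HSP90AA1 with A_23_P162874, with a difference of -0.50 (SE 0.11, adjusted p = 0.0389). TSC22D3 was higher in replicate 1 within both groups, by 1.25 in control and 1.04 in knockdown, and SGK1 by 0.47 and 1.11. The count of called members ran from 0 with the processed intensity or with no filter to 7 with normexp and quantile normalization, and TSC22D3 was called in 6 of 8 settings with differences from 1.01 to 1.15. Both arrays numbered 1 were also high in genes of amino acid deprivation and the integrated stress response, where the mean of 13 probes ran from 10.63 to 12.48 on control and from 10.78 to 12.51 on knockdown arrays. TRIB3, a pseudokinase induced by the stress factor ATF4, was higher by 2.95 in replicate 1 (adjusted p = 0.000191). Whether this program has a part in the members' spread was not tested.

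**Figure D3:**
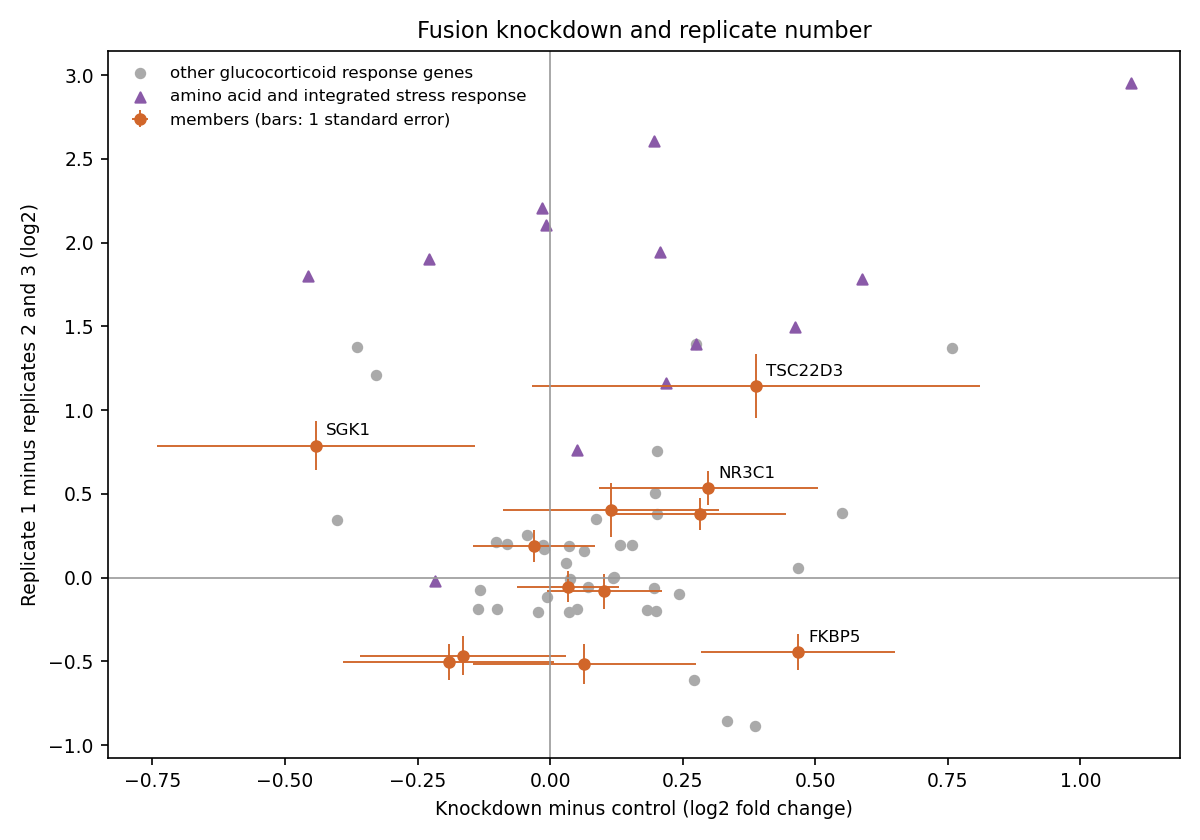
Difference between knockdown and control (horizontal axis, log2) against the difference between replicate 1 and replicates 2 and 3 (vertical axis, log2) for the 12 member probes (circles with bars of 1 standard error), the other glucocorticoid response genes (gray circles) and the amino acid and integrated stress response genes (triangles). TSC22D3 lies at 1.14 and SGK1 at 0.79 on the vertical axis, and FKBP5 at -0.44, while no member exceeds 0.47 in size on the horizontal axis.

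Other genes around the receptor were taken from 8 lists with 151 distinct probes that passed the filter, of which 1 (0.662%) was called, against 1.74% of all probes, and 17 had an unadjusted p under 0.05 in limma, against 12.5% of all probes. With the replicate number as a block 10 of the list probes were called, against 3.79% of all probes, and 5 with both arrays numbered 1 left out, against 2.59%. The called probe was JUN, a subunit of the AP-1 factor that the receptor represses by tethering, which fell from 7.52, 7.52 and 7.02 on control arrays to 5.65, 5.89 and 5.96 on knockdown arrays. Its log2 fold change was -1.52 (SE 0.16, adjusted p = 0.00361), and it was called under each of the 18 alternatives, with values from -2.41 to -0.98. JUN was well above background on 5 of the 6 arrays, and its knockdown values lay close to background, where this scale compresses differences.

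In the other glucocorticoid response genes (39 probes of 32 genes), none was called, 26 probes had a higher and 13 a lower mean in knockdown, and the median log2 fold change was 0.07. The lowest p belonged to NFIL3, a leucine zipper factor of lymphocytes, with 12.44, 12.22 and 12.41 on control and 12.82, 12.76 and 12.90 on knockdown arrays, so that the groups did not overlap. Its log2 fold change was 0.47 (SE 0.10, adjusted p = 0.0853), and it was called with the replicate block (adjusted p = 0.0445). DDIT4, an inhibitor of mTORC1, had the largest difference of the list, 0.76 (SE 0.47, adjusted p = 0.570), and differences of 0.87, 0.55 and 0.85 between arrays of the same number; it was called with the block (adjusted p = 0.0147). Its log2 fold change was 0.27 without knockdown replicate 1 and 1.19 without control replicate 1. RHOB, a small GTPase, was the other gene called with the block, with log2 fold changes of 0.55 (A_33_P3398862, adjusted p = 0.206, 0.0484 with the block) and 0.20 (A_33_P3308446, adjusted p = 0.566, 0.345 with the block). IRS2, an adaptor of insulin signalling, had -0.40 (adjusted p = 0.334), and SLA, an adaptor of antigen receptor signalling, 0.24 (adjusted p = 0.369). BCL2L11, the proapoptotic protein BIM that carries much of the lethal glucocorticoid response in lymphoid cells, had log2 fold changes from 0.12 to 0.20 over 3 probes, none of them called; it was named for this role after its values were seen.

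Among these same 39 probes, 9 were called between replicate 1 and the others, against 5.66% of all probes, with 6 higher (3.64% of all probes) and 3 lower (2.02%), and the count ran from 3 to 10 over the settings tried. The higher genes were TXNIP (1.38), an inhibitor of thioredoxin and of glucose uptake, DDIT4 (1.37), CEBPB (1.40), a leucine zipper transcription factor, BMF (1.21), a proapoptotic BH3-only protein, ISG20 (0.76), an exonuclease, and LPIN1 (0.50), a phosphatidate phosphatase with a second probe at 0.38 that was not called. The lower probes were those of the metallothioneins MT2A (-0.88) and MT1X (-0.61 and -0.85). They are named as all called probes of the list in this contrast, after their values were seen, and CEBPB also belongs to the integrated stress response list.

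Of the chaperones and partners of the receptor complex (27 probes), none was called, and the median log2 fold change was -0.0007. STIP1, which links HSP70 to HSP90, had a log2 fold change of 0.30 with each of its 2 probes (lowest adjusted p 0.221), PTGES3, the p23 cochaperone, -0.47 (adjusted p = 0.225), and PPP5C, a phosphatase of the complex, 0.24 (adjusted p = 0.406). ST13, an HSP70 cochaperone, had log2 fold changes from -0.27 to 0.23 over 7 probes (lowest adjusted p 0.476, at -0.24). Of the receptor coregulators (24 probes), none was called and the median was -0.05. The chromatin remodelling subunits ARID1A and SMARCD1 had log2 fold changes of 0.33 and 0.29 (adjusted p = 0.218 and 0.257), and the corepressor components TBL1XR1 and NCOR1 had probes that differed among themselves. TBL1XR1 had log2 fold changes of -0.25 and 0.05 with its 2 probes (lowest adjusted p 0.407), and NCOR1 -0.30, -0.25 and -0.04 with its 3 (lowest adjusted p 0.425).

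Of 10 probes for steroid handling and related receptors, 2 passed the filter and neither was called. NR3C2, the mineralocorticoid receptor, had a log2 fold change of -0.27 (adjusted p = 0.319) and SRD5A1, a steroid reductase, 0.26 (adjusted p = 0.375). The other 8 probes did not pass the filter, and 6 of the 10 were not well above background on any array. Among these 6, named after their values were seen, were probes of the progesterone receptor PGR, the cortisone reductase HSD11B1 and the efflux pump ABCB1.

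Paralogues of the members (28 probes) held no called probe, with a median of 0.01. KLF3, a repressor of the KLF family, read 10.61, 10.22 and 10.18 on control and 9.83, 9.28 and 9.28 on knockdown arrays with no overlap. Its difference was -0.87 (SE 0.18, adjusted p = 0.0688). It was called under 5 of 18 alternatives, among them the replicate block (adjusted p = 0.00607) and the comparison without the arrays numbered 1 (adjusted p = 0.00653). TSC22D1, a paralogue of TSC22D3, had -0.60 (SE 0.13, adjusted p = 0.0837, 0.0309 with the block). SGK3, a paralogue of SGK1, had -0.17 (adjusted p = 0.521).

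**Figure D4:**
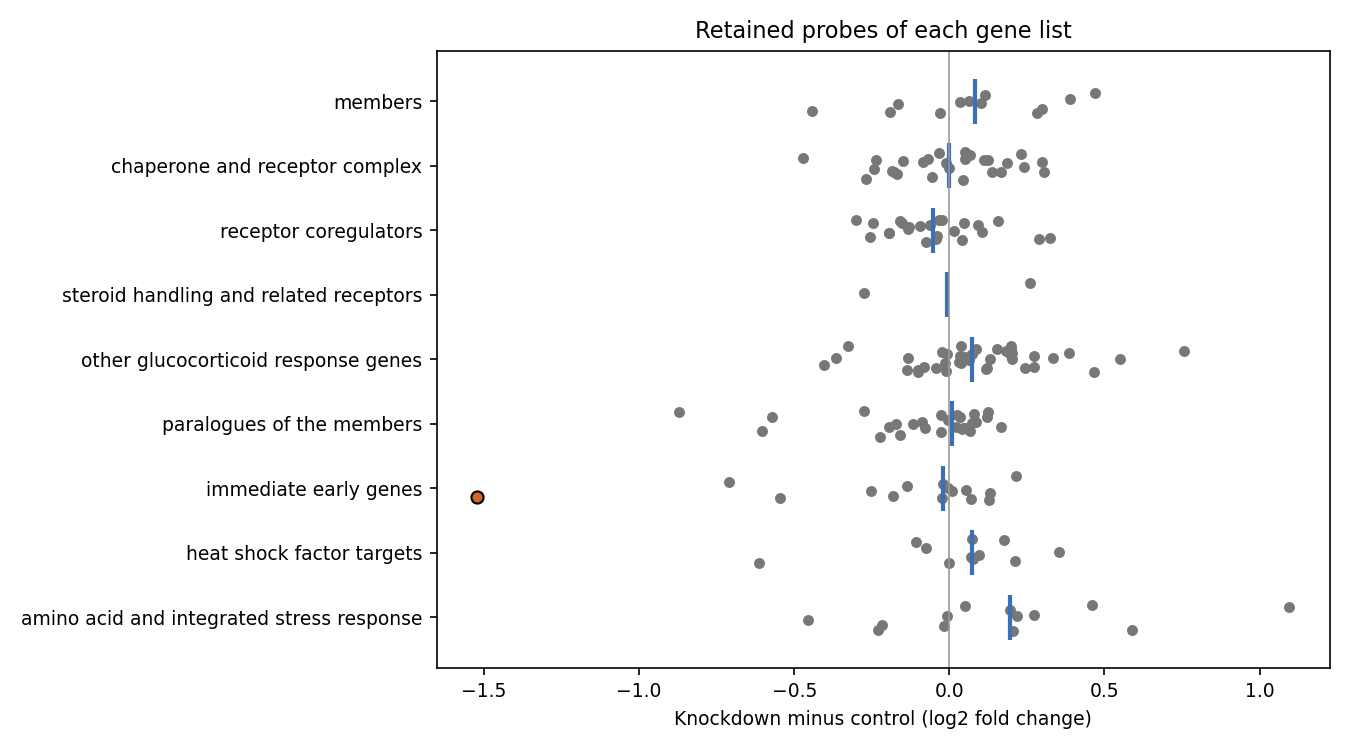
Log2 fold change of knockdown against control for each probe that passed the filter (dots) in the members and in 8 gene lists, with the median of each list as a vertical bar; the outlined orange dot is JUN, the only called probe. List medians lie between -0.05 and 0.20, and JUN lies at -1.52.

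Among the other immediate early genes (15 probes with JUN, median -0.02), EGR1 and FOS, transcription factors of the growth factor response, had log2 fold changes of -0.71 (adjusted p = 0.0719) and -0.55 (adjusted p = 0.0747), both without overlap of the groups, and MYC -0.18 (adjusted p = 0.483). With the replicate block EGR1 was called (adjusted p = 0.0333). Heat shock factor targets (11 probes) had a median of 0.07 and no call, with HSPB1, a small heat shock protein, at -0.61 with A_33_P3287646 (adjusted p = 0.262, 0.0409 with the block) and 0.09 with A_33_P3353242 (adjusted p = 0.831, 0.690 with the block), HSPA1A at 0.35 (adjusted p = 0.451), DNAJB1 at 0.21 and HSPA1B at 0.18. HSPA1A and HSPA1B are near-identical genes whose probes may not separate them. The amino acid and integrated stress response list (13 probes) had a median of 0.20, the highest of the 8, and no call, with TRIB3 2.14-fold higher in the mean (SE of the log2 value 1.00, adjusted p = 0.706, 0.00283 with the block), ATF5 at 0.59 (adjusted p = 0.746, 0.0354 with the block), DDIT3 at 0.46 (adjusted p = 0.774) and VLDLR at -0.22. Without knockdown replicate 1 the log2 fold changes of TRIB3 and ATF5 were 0.12 and 0.037, and without control replicate 1 they were 2.09 and 1.23.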

How the data were processed

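Total RNA of REH cells was labelled with Cy3 and hybridised to custom Agilent arrays. Per the file headers, the authors used Feature Extraction 10.7.1.1 to read spot intensities, and these deposited intensities were not normalized between arrays. The authors also deposited normalized log2 values of 27869 probes, for which the methods name VSN, background subtraction and a filter against negative controls. The genome build behind the array design was not used here.

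The VSN model (affine calibration of each array and an inverse hyperbolic sine, trimmed at the 0.9 quantile with 7 iterations) was written anew and fitted to the raw median intensity. Its values correlated with the deposited log2 values at 0.999 or above on each array. Outlier spots were dropped, which touched 541 probes, and repeated spots were averaged per probe. Retained probes exceeded, on 2 of 3 arrays of a group, 1.1 times the 0.95 quantile of 308 negative controls, with the factor applied on the normalized log2 scale. This cut is stricter than the same factor on the raw intensity, which was used as an alternative. No spot was saturated, 45.7% to 50.9% of probes were well above background, and the 6 arrays lay on 1 slide in 1 scan. Their number limits the precision.

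The comparison of knockdown with control used limma 3.58.1 (lmFit and eBayes, two-sided, no block; R 4.3.3), with Benjamini-Hochberg adjustment over all 27490 retained probes. The arrays numbered 1 deviated together (correlation of 0.43, where the highest with an array of another number was -0.29). For numbers 2 and 3 the correlations of 0.29 and 0.20 were only slightly above the highest with another number, 0.19 and 0.17. The numbers were taken to pair the arrays, which rests mainly on number 1. A replicate block was fitted as an alternative, 1 of 18. Single member probes were also compared by an exact permutation test, two-sided. On simulated data for this comparison (33949 probes, 200 of them changed), 83.5% of changed probes were called, and 5.11% of calls were unchanged probes. The real comparison had 27490 retained probes. Whether the 83.5% holds for differences as small as those of the members was not tested.

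Of 34134 catalogue probes, 25728 were named through a RefSeq gene table. Named were all members, ETV6 and RUNX1, the called genes of each list or those with the lowest p up to 4, the 4 genes most like the member of lowest p, and defining markers. The members and lists were chosen with earlier results of these data known. Lists are described by counts and medians. Values of some genes on the lists are not reported here.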

Additional observations from a re-analysis of the deposited data

How the results depend on the processing

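With 18 alternatives, of which the raw-scale threshold for negative controls and the comparison without the arrays numbered 1 were chosen after seeing the data, the count of called members was 0 except 1 with spike-in scaling (FKBP5) and 1 with both arrays numbered 1 left out (SGK1). The 478 calls over all probes became 951 (798 higher and 153 lower) with spike-in scaling, 224 with no filter, 227 with the slide row as a term, 1041 (373 higher and 668 lower) with the replicate block that pairs arrays of the same number, and 191 (without control replicate 2) to 553 (without knockdown replicate 1) when arrays were left out in turn. The 1 call in the gene lists became 2 with normexp or with the trend and robust prior, 7 with spike-in scaling, 10 with the replicate block, 5 without the arrays numbered 1, and 1 to 2 when arrays were left out in turn. Beside the calls given with the block in the comparisons above, the replicate block changed no call of a named gene. The 1557 calls between replicate 1 and the others became 910 with the processed intensity, 372 with spike-in scaling, 140 with no filter and 896 with the raw-scale threshold, and the 4 member calls became 0, 1, 0 and 1 under these settings and 7 with normexp. Uncalled differences changed sign. Spike-in scaling, which raised the median of all probes by 0.35 and moves all probes alike, so that these changes of sign are no property of single genes, turned PER1 to 0.32, HSP90AA1 to 0.16 (A_23_P162874) and 0.19 (A_32_P199252), RUNX1 to 0.087, 0.16, 0.14 and 0.21, ST13 to 0.11, TBL1XR1 to 0.10, NCOR1 to 0.050, NR3C2 to 0.076, SGK3 to 0.18, MYC to 0.17 and VLDLR to 0.13. PER1 was 0.031 with the processed intensity. The slide row term gave PER1 0.092, ZBTB16 -0.080 and HSPA1B -0.024. Averaging the probes of a gene gave HSP90AA1 -0.097 and RUNX1 -0.15. Without the arrays numbered 1, PER1 was 0.050, DUSP1 -0.0032 and BTG1 -0.097. Leaving out arrays in turn moved the differences of all 12 member probes and of 16 of the 35 other probes chosen by the rule for named genes by over 1.5 times. PER1 ran from -0.092 to 0.073, ZBTB16 from -0.0026 to 0.091, BTG1 from -0.13 to 0.29, HSP90AA1 from -0.35 to 0.0045 (A_23_P162874), from -0.093 to 0.31 (A_33_P3665777) and from -0.33 to -0.021 (A_32_P199252), DUSP1 from 0.022 to 0.17, DNAJB1 from 0.055 to 0.42, HSPA1B from 0.077 to 0.32, HSPA1A from 0.25 to 0.55, PTGES3 from -0.57 to -0.31, ST13 (A_24_P127021) from -0.31 to -0.15, NCOR1 (A_24_P204214) from -0.39 to -0.16, HSPB1 (A_33_P3287646) from -0.77 to -0.40, VLDLR from -0.34 to -0.12, RUNX1 from -0.43 to -0.16 (A_24_P34155), from -0.30 to -0.12 (A_24_P96403), from -0.27 to -0.14 (A_33_P3211804), from -0.23 to -0.063 (A_33_P3211809) and from -0.033 to 0.12 (A_33_P3211818), and DDIT3 from -0.13 to 0.87, and TSC22D3 was 0.043 without knockdown replicate 1 and 0.81 without control replicate 1. The cause of these changes was not tested.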

Other observations

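The genes whose values over the 6 arrays lay closest to those of FKBP5, after each was centred and scaled to unit SD, were XRCC3 (mean absolute difference 0.059 SD units), DNAAF3 (0.089), PRPS1 (0.097) and CD38 (0.11), out of 17549 named probes searched. Their log2 fold changes were 0.38, 0.31, 0.16 and 0.39, with adjusted p of 0.401, 0.362, 0.601 and 0.405, and none was called. RUNX1, the other partner gene of the fusion, had log2 fold changes from -0.26 to 0.03 over 5 probes, none of them called. Of the 541 probes with a spot flagged as an outlier, 360 are in the deposited log2 table.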
